A study of Bos taurus with 12 samples.

Results

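THSD7B is a single cattle gene, and its members here are the 272 methylation sites that the authors' deposited table places in it, of 216990 sites in the whole table. A site was taken when its annotation was not distal intergenic and named THSD7B as the gene it lies in (or, for a promoter, as its gene). The sites were selected on measured values: the authors deposited only sites whose difference between subfertile and fertile cows passed their threshold, and every one of the 216990 differs by more than 25 percentage points with a q-value under 0.01. The gene itself was chosen by its number of such sites, 272, which ranks 6 among 8569 named genes with a site. The contrast between the groups therefore chose the members, and its direction and size are described below without a test.

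The study measured DNA methylation at single cytosines in blood from 12 dairy cows aged 3 to 8 years that were kept under the same conditions on one farm. A year after sampling, 6 cows that had since been culled for reproductive complications, not recognised when the blood was drawn, formed the subfertile group, and 6 cows still in the herd without fertility problems formed the fertile group. All 12 samples were blood from separate cows, and the labels name no treatment and no blood cell type. The table holds no expression values, so the cell makeup of the blood was not checked against markers. Cows are named here by group and number, from subfertile cow 1 to 6 and from fertile cow 1 to 6. The numbers in the sample titles of the subfertile cows all lie above those of the fertile cows. The labels do not say what these numbers stand for. Anything that follows them cannot be told apart from fertility class. In the value table the columns of cows labelled subfertile begin with F and those of cows labelled fertile with R. The sources used here do not say what these letters stand for. The labels were followed, and every direction below would turn if the letters meant the opposite.

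THSD7B encodes thrombospondin type 1 domain containing 7B, a membrane protein whose extracellular part carries a row of thrombospondin type 1 repeats, short modules found in many secreted and cell surface proteins that bind matrix and other proteins. Its closest relative, THSD7A, is known as a podocyte protein and as a target of autoantibodies in membranous nephropathy, whereas little is known of what THSD7B does. In mammalian DNA most CpG cytosines within gene bodies are methylated, and methylated and unmethylated copies of a site can coexist in a sample because cells, or the maternal and paternal copies in a cell, differ.

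Each value is the percent of methylated calls at one cytosine in one cow. The depth behind the percentages is unknown here, since the table gives no read numbers, so no interval for a single value can be given. The DNA was converted with enzymes that protect 5-methylcytosine and 5-hydroxymethylcytosine alike and turn unmodified cytosine into a base read as thymine. In such reads a thymine in the animal's own DNA looks like an unmethylated cytosine, so a methylation difference and a sequence difference at the site cannot be told apart from the percentages alone. Genotypes were not analysed here. Likewise, a value near the middle of the scale may come from a mixture of cells or from differing gene copies, and these cannot be told apart in bulk blood.

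THSD7B lies on chromosome 2 of the ARS-UCD1.2 assembly, from 59511857 to 60421786 on the minus strand (gene ENSBTAG00000044055), and is 909.93 kb long. The table gives it 4 transcripts. The longest starts at 60421786, and the others start inside the gene at 60225345, 60224427 and 60222558. Its members run from 59531238 near the end of the gene to 60423690 just upstream of the first start. Most lie in introns, as the authors' annotation numbers them: 94 in intron 11, 56 in intron 4, 26 in intron 1, 23 in intron 14, 13 in intron 2 and 12 in intron 13. Another 18 are promoter sites (within 3 kb of a start), 5 at the first start and 13 at the inner starts. Only 3 lie in exons, a pair in exon 5 and a single site in exon 12. The gene span holds 31.3 deposited sites per 100 kb, 285 in all. Of these, 18 are not members, because they were assigned to the promoters of the nested genes LOC112443607 (17 sites) and LOC785761 (1 site). The table also names a nearest gene for each site, and for only 104 of the members was that THSD7B, while LOC112443607 was nearest for 138.

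The smallest differences among the members, just inside the authors' threshold, were 25.7 points at 60165224, -26.3 points at 59913381 and 26.4 points at 59775896. Sites outside that threshold were not analysed here. Across the members the absolute difference ranged up to 65.4 points with a median of 36.8, against a median of 34.7 over the whole table. A value was present in all 12 cows at 233 members (85.7%, against 81.3% of the table). The number of members without a value ran from 0 to 13 per cow and was highest in subfertile cow 3.

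At 101 of the 272 members methylation was higher in the subfertile cows (37.1%, against 52.1% of all deposited sites), and at 171 it was lower (the table has 47.9% of its sites in that direction). Averaged over all members, methylation was 42.5% ± 8.3 (SD, n = 6) in the subfertile and 51.4% ± 5.0 (SD, n = 6) in the fertile cows, a difference of -8.85 points. The lowest means were 32.6% in subfertile cow 1 and 32.7% in subfertile cow 5, and the highest was 59.0% in fertile cow 6. The groups overlapped, since subfertile cow 2 at 53.0% stood level with fertile cow 1 (53.0%) and above 4 other fertile cows. The sign of this average depends on the sites counted: over the 40 members that lack either a cow under 10% or a cow over 80%, the difference was 4.71 points.

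At the 101 sites higher in subfertile cows, the subfertile means were 88.0%, 20.5%, 67.9%, 65.4%, 88.7% and 82.9% in cows 1 to 6, and the fertile means were 16.5%, 31.5%, 40.8%, 43.4%, 50.3% and 10.9%. Subfertile cow 2 was below 4 of the 6 fertile cows there, while the other 5 subfertile cows were above all of them. At the 171 sites lower in subfertile cows, the subfertile means were 0.039%, 71.8%, 31.0%, 31.4%, 0% and 27.0%, and the fertile means were 74.6%, 64.1%, 58.4%, 45.1%, 46.4% and 87.4%. Again the same cow stood apart from its group: subfertile cow 2 was above 4 fertile cows, and the other 5 subfertile cows were below all 6.

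**Figure D1:**
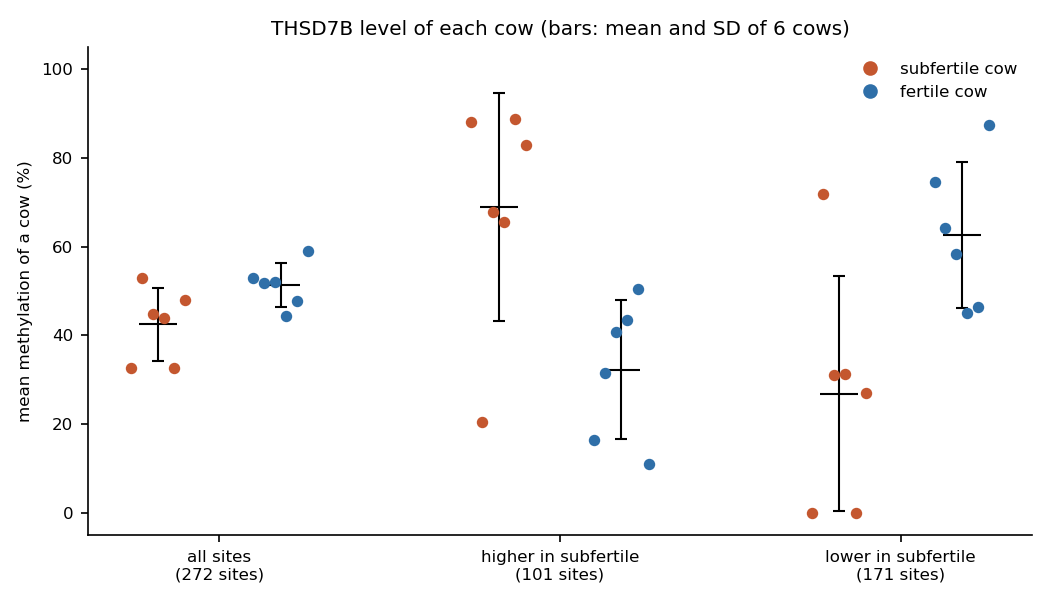
Mean methylation of each cow (vertical axis, percent) over all 272 THSD7B sites, over the 101 sites higher and over the 171 sites lower in subfertile cows. Each point is a cow, with the mean and SD of the 6 cows of a group as black bars. Subfertile cow 2 lies among the fertile cows in both sets on the right, at 20.5% and 71.8%.

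The groups did not overlap at 2 members (0.735%, against 3.1% of all deposited sites). The first, at 59696180 in intron 14, was at 85.7% to 100% in the 6 subfertile cows and at 60% to 83.3% in the 5 fertile cows with a value, a deposited difference of 28.0 points. The second, at 60228802 in intron 1, was at 0% in 4 subfertile cows and 30% in subfertile cow 2, and at 55.6% to 91.7% in the fertile cows. That site has the largest difference of the gene, -65.4 points, but had no value in subfertile cow 6 and fertile cow 2. Among the 233 members with a value in every cow, none separated the groups. The same share over the table's 176455 sites with a value in every cow was not computed. Without subfertile cow 2 the number of members with separate groups rose to 29 (10.7%, against 5.12% of the table without that cow). Without fertile cow 2 it was 16 (5.88%, against 4.91%), and without fertile cow 4 it was 4 (1.47%, against 4.80%).

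What set the members apart from one another was which cows read near 0. At 232 of the 272 members (85.3%, against 69.9% of the table) some cow read under 10% while another read over 80%. With each 1 kb cluster of members counted once the share was 71.9%, and the table's share by cluster was not computed. An exact 0 in at least 1 cow occurred at 253 members (93.0%, against 78.1% of the table). Each member was therefore described by the set of cows under 10% there, and a set shared by at least 5 members with values in all cows was kept as a pattern. This gave 7 patterns, which together held 235 of the 272 members (86.4%) but 3.31% of the whole table. These sets were found on the members themselves, so their share of the members and of the table is a description. Of the 7 sets, 6 form pairs in which the low cows of one are the high cows of the other, and the second of each pair is called a mirror here.

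Pattern A, with 82 sites, was the most frequent. Subfertile cows 1, 5 and 6 were at 0% at these sites. The means of subfertile cows 3 and 4 were 41.8% and 42.4%, and those of fertile cows 3, 4 and 5 were 43.6%, 45.8% and 45.0%. Subfertile cow 2 and fertile cows 1, 2 and 6 were at 83.5%, 83.3%, 84.1% and 86.6%. The cows thus fell into 3 separate levels, and each fertility group contained cows of more than 1 level. The SD over the 82 sites was 12.9 to 16.0 points in every cow that was not at 0. Only the cows under 10% defined the pattern, so the separation of the rest into a middle and a high level was not fixed by the definition.

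The mirror of A, with 48 sites, showed the reverse order. Subfertile cow 2 and fertile cows 1, 2 and 6 were at 0% or 0.10%. The 5 middle cows were the same as in A, at 41.8% to 53.1%. Subfertile cows 1, 5 and 6 were at 87.4%, 89.0% and 88.7%. When the mean of a cow in A was added to its mean in the mirror of A, the sum lay between 83.4 and 94.9 in every cow. In subfertile cows all 82 sites of A had lower levels, by a mean difference of -36.8 points, and all 48 sites of its mirror had higher levels, by 39.1 points. The low cows that define A are all subfertile and most of those that define its mirror are fertile. The definition and the authors' threshold thus favour these directions.

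Pattern B, with 38 sites, differed from A in 2 cows: subfertile cow 6 and fertile cow 3 were high, at 87.3% and 91.0%. Subfertile cows 1 and 5 were at 0%, and subfertile cows 3 and 4 and fertile cows 4 and 5 were at 43.0% to 50.4%. Its mirror had 6 sites, at which subfertile cows 1 and 5 were high, at 87.6% and 86.4%. The 4 middle cows were again the same, at 38.5% to 48.3%, and the other 6 cows were at 0%.

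Pattern C, with 30 sites, was low in all subfertile cows but subfertile cow 2, with means of 0% to 0.22%, and was at 0% in fertile cow 2 as well. Subfertile cow 2 and fertile cows 1, 3, 4 and 5 were at 39.8% to 48.3%, and fertile cow 6 was alone at the high level with 87.9%. In the mirror of C, with 19 sites, fertile cow 6 alone was at 0%, the same 5 cows were in the middle at 41.2% to 46.1%, and the remaining cows were at 81.3% to 92.6%. Pattern D, with 12 sites, differed from C in subfertile cow 6 at 89.8% and fertile cow 3 at 89.3%, both at the high level together with fertile cow 6. No mirror of D passed the minimum of 5 sites. The mirror of C is defined by a single low cow, and most of the table's share in the patterns belongs to it. Without it the other 6 patterns held 79.4% of the members and 0.816% of the table.

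**Figure D2:**
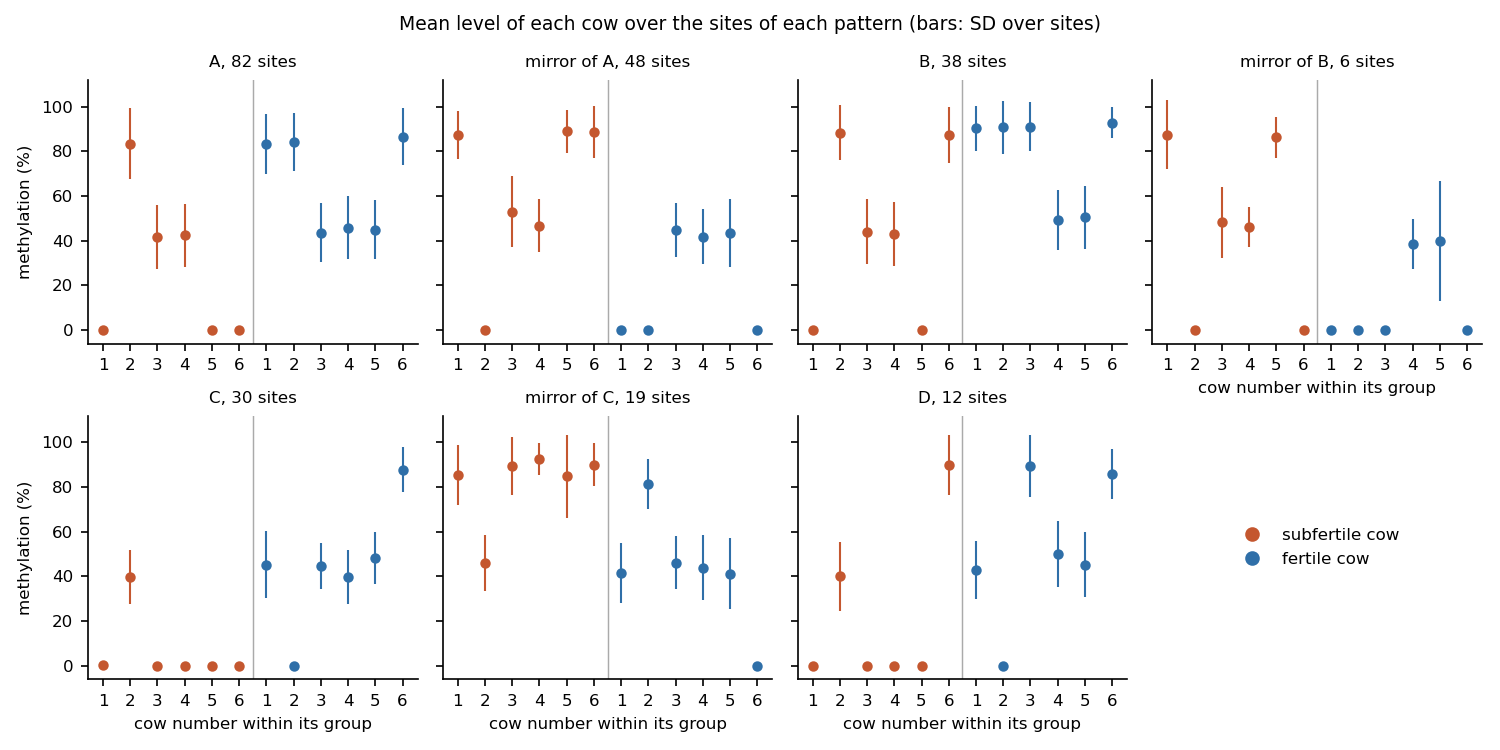
Mean methylation (vertical axis, percent) of each cow over the sites of each of the 7 patterns, with the SD over sites as bars. The horizontal axis numbers the cows within their group, subfertile in orange on the left and fertile in blue on the right. In every panel the cows sit near 0, between 38.5% and 53.1%, or between 81.3% and 93.0%.

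Over the 7 patterns, low cows had means of at most 0.22%, middle cows of 38.5% to 53.1% and high cows of 81.3% to 93.0%. Of the members outside the patterns, 19 had no cow under 10% and 18 had another set of low cows. Fertile cows 4 and 5 were in the middle in all 7 patterns. Fertile cow 4 read between 10% and 80% at 266 of its 272 values (97.8%, against 45.7% over the table), and fertile cow 5 at 246 of 267 (92.1%, against 45.6%). Subfertile cows 1 and 5 were at the other extreme and never in the middle of a pattern. They read between 10% and 80% at 8.52% and 6.64% of the members, against 42.6% and 44.3% over the table. Sites of one pattern repeat the same cow levels, so these shares do not rest on separate observations. No other single gene was read in this way.

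**Figure D3:**
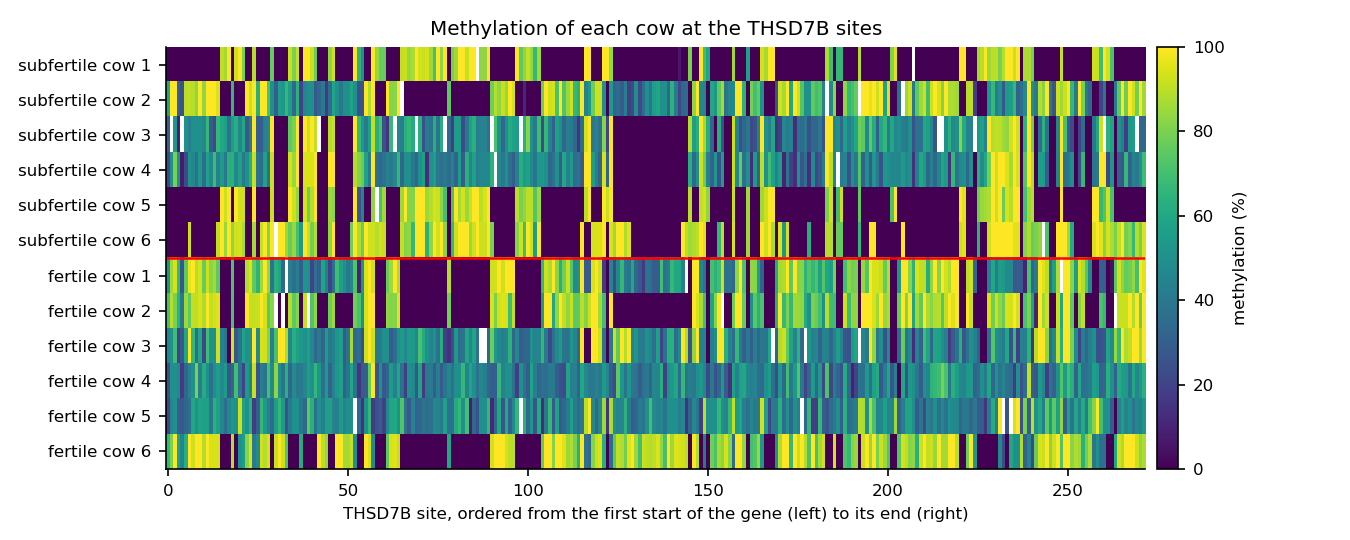
Methylation (colour, percent, white where there is no value) of the 12 cows, in rows, at the 272 THSD7B sites, in columns ordered from the first start of the gene to its end. The red line parts subfertile cows (above) from fertile cows (below). Fertile cow 4 stays between 10% and 80% at 97.8% of its values, whereas subfertile cows 1 and 5 switch between 0 and high values at the same sites.

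Some pairs of cows were close to each other at THSD7B, within a group in some cases and across the groups in others. Subfertile cows 1 and 5 differed by 3.28 points on average over the members, against 28.3 over the table. Subfertile cow 2 and fertile cow 1, of different groups, differed by 9.59 points, against 41.6 over the table. Subfertile cows 3 and 4 differed by 11.8 points, against 28.5. Over all 66 pairs of cows the mean difference at THSD7B had a median of 35.9 points and reached 83.8 between subfertile cow 5 and fertile cow 6, whereas over the table the pairs ranged from 26.6 to 44.3. Within a group the median over pairs was 31.2 points and between groups it was 43.6. The table's sites were selected on the group contrast, which holds pairs of different groups apart in both comparisons. Here too the members repeat a few patterns, and no other single gene was compared.

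The patterns were interleaved along the gene, so that the direction of the difference changed in places, though most neighbouring members had the same direction. Of 271 pairs of neighbouring members, 56 (20.7%) had opposite directions, and the longest stretch in one direction was 21 lower sites. The neighbours include the 2 strands of 72 CpGs, which all had the same direction. Among 79 neighbours 2 to 1000 bases apart, 14 were opposite. Pattern A spanned 737 kb of the gene and B spanned 880 kb. Intron 11, the richest part, held 44 sites of A, 11 of B, 13 of C and 11 of the mirror of A, and 73 of its 94 sites were lower in subfertile cows. Intron 4 leaned the other way, with 32 sites of the mirror of A among 56, and 35 were higher in subfertile cows. Mean levels were 34.5% ± 15.5 (SD, n = 6) against 54.1% ± 9.6 (SD, n = 6) in intron 11, and 49.7% ± 8.0 against 39.0% ± 5.1 in intron 4, in subfertile and fertile cows. The groups overlapped in both introns. All 5 sites of intron 19 followed pattern B.

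**Figure D4:**
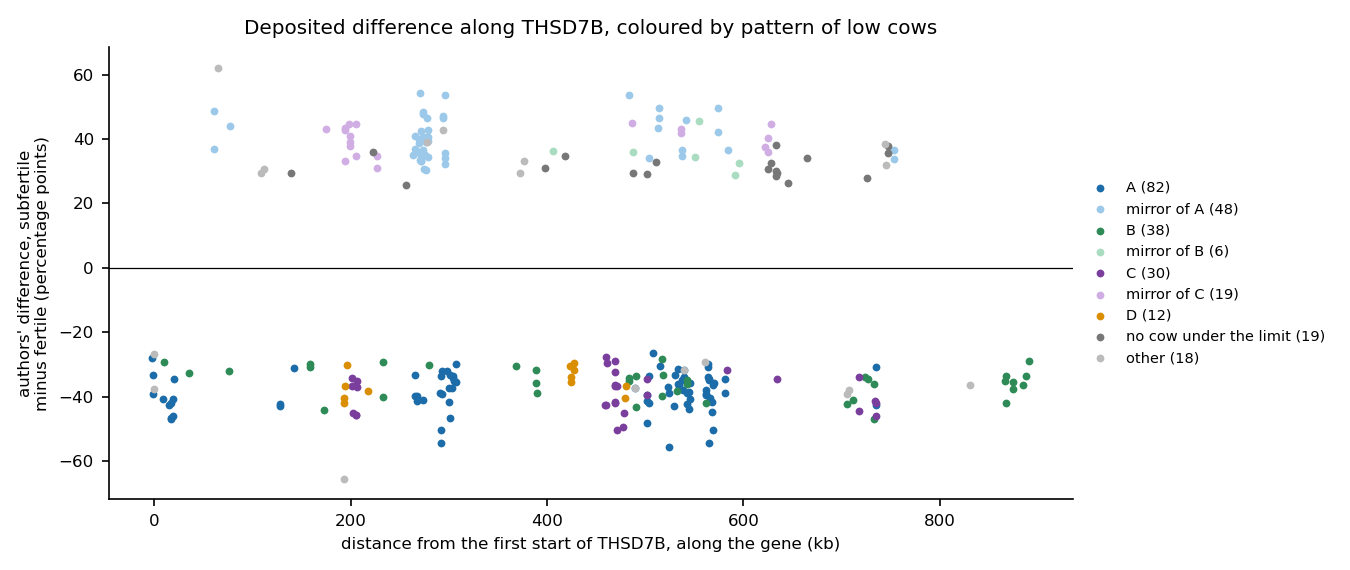
Deposited difference of each THSD7B site (vertical axis, subfertile minus fertile in percentage points) against its distance from the first start along the gene (horizontal axis, kb). Colours give the pattern, with the number of sites in brackets. In introns 4 and 11 both A and its mirror occur, on opposite sides of 0. Elsewhere a pattern can stand without its mirror, as B does in intron 19, and D has none. The empty band around 0 is the authors' threshold.

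Of the 5 most positive and 5 most negative members, 8 were in a pattern, and the most extreme site in each direction was not. The most positive, at 60356473 in intron 1 (62.2 points), was at 100% in subfertile cows 1, 5 and 6, at 37.5% and 62.5% in subfertile cows 3 and 4, and at 0% in subfertile cow 2. There fertile cows 1, 2, 3 and 6 were at 0%, and fertile cows 4 and 5 at 27.3% and 46.2%. It matched no pattern because fertile cow 3 was at 0% rather than in the middle. The next most positive were 60150941 and 60126125 in intron 4 (54.4 and 53.6 points) and 59938641 and 59908220 in intron 11 (53.7 and 49.7 points), all in the mirror of A.

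After 60228802, described above and outside the patterns, the most negative members were 59897214 (-55.6 points), 60129610 (-54.4), 59856452 (-54.3) and 59950073 (-50.4). The first 3 belong to pattern A. At 59897214 in intron 11, subfertile cows 1, 5 and 6 were at 0%, subfertile cows 3 and 4 at 12.5% each, and subfertile cow 2 and fertile cows 1 and 6 at 100%. At 59950073, a pattern C site of intron 11, fertile cow 6 was at 100% and fertile cow 2 at 0%. At each of these 4 sites the groups overlapped.

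The promoter sites split by start. At the first start, all 5 sites (60422017 to 60423690) were lower in subfertile cows, with mean levels of 22.4% ± 26.7 (SD, n = 6) against 52.9% ± 16.5 (SD, n = 6). Subfertile cows 1, 5 and 6 were at 0%, and the other 3 subfertile cows were at 62.8%, 29.9% and 41.9%. The fertile cows ranged from 34.7% to 69.8% and so overlapped with subfertile cows 2 and 4. The nearest to that start, 60422017, had a difference of -26.9 points, with means of 6.43% against 30.5% and no value in subfertile cow 3. The groups overlapped there. Another, 60422291, also lies less than 1 kb upstream of that start and had a difference of -37.7 points. It read 0% in subfertile cows 1, 5 and 6, 8.33% in subfertile cow 3, 30.8% in subfertile cow 2 and 50% in subfertile cow 4, and 20% to 66.7% in the fertile cows, so that the groups overlapped.

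At the inner starts, the subfertile cows were above the fertile ones at 7 of 13 sites and below them at 6, and the mean levels were 53.2% ± 9.4 and 46.8% ± 6.8 (SD, n = 6 each), with the groups overlapping. All 7 higher sites there followed the mirror of C, and the 6 lower ones followed C (2 sites) or D (4 sites). At 60223646, the one with the largest positive difference (44.8 points), fertile cow 6 was at 0%, fertile cows 1, 3, 4 and 5 were at 33.3% to 52.6%, and fertile cow 2 was at 91.7%. At 60228161, with -42.1 points, subfertile cow 6 and fertile cows 3 and 6 were at 100%. Subfertile cows 1, 3, 4 and 5 and fertile cow 2 were at 0% there. Opposite directions thus lay within a few kilobases around the inner starts.

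Among the exon sites, the pair at 60114555 and 60114556 in exon 5 are the 2 strands of one CpG and followed pattern A, with differences of -30.0 and -35.4 points. Subfertile cows 1, 5 and 6 were at 0% on both strands. The high cows of pattern A were lower here than in the pattern as a whole, at 47.1% to 80%. The exon 12 site, 59826416 (32.6 points), followed the mirror of B and was at 100% and 86.7% in subfertile cows 1 and 5, at 44.4% and 60% in subfertile cows 3 and 4, at 41.7% and 15.4% in fertile cows 4 and 5, and at 0% in the other 6 cows.

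Both strands of a CpG could be compared at 72 CpGs, which hold 144 of the members. The strands differed by a median of 6.50 points in a cow, with the same direction of group difference at all 72 and the same pattern at 68. Over the whole table the median difference between strands was 5.71 points. Members close to one another also moved together after the group means were removed. The median Pearson r over the cows was 0.89 for the 293 pairs of members within 1 kb and 0.67 for the 1509 pairs 1 to 10 kb apart. Because mirror sites give negative values, size was compared as well. The median absolute r was 0.88 at 1 to 10 kb, 0.48 at 10 to 100 kb and 0.50 at 100 to 500 kb, and it was 0.23 between members and sites of other chromosomes. These pairs share the same 12 cows and libraries, and the correlations are descriptions.

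Of the 121 clusters formed by members no more than 1 kb apart, 15 were runs of 5 or more sites. The longest were a pair of runs of 9 sites in intron 4, from 60142589 to 60144709 and from 60150307 to 60152332, which held only higher sites and followed the mirror of A at 8 and 9 sites. In the first, subfertile cows 1, 5 and 6 were at 94.8%, 93.5% and 95.9%, while subfertile cow 2 and fertile cows 1, 2 and 6 were at 0%. A run of 7 sites in intron 11, from 59855620 to 59857689, followed pattern A at every site. A run of 6 in intron 11, from 59952324 to 59952944, followed pattern C, and one of 6 in intron 4, from 60129064 to 60130561, followed A. Other runs mixed directions. The 7 sites from 60227365 to 60228802, at the inner starts, held 3 of the mirror of C, 3 of D and the site with separate groups described above. The 7 sites from 59882714 to 59884206 held 4 of A and 2 of its mirror, and the 6 from 59919467 to 59920342 held 3 of A and 2 of C.

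The patterns continued beyond the gene for some distance. Within the gene span 249 of 285 deposited sites (87.4%) were in one of the 7 patterns. Downstream of the gene the share was 25 of 36 sites (69.4%) in the first 500 kb, 0 of 15 in the next 500 kb and 6 of 285 (2.11%) from 1000 to 2000 kb. Upstream it was 23 of 51 (45.1%) in the first 500 kb, 18 of 82 (22.0%) from 500 to 1000 kb and 0 of 84 from 1000 to 2000 kb. Over all of chromosome 2, the gene span included, it was 525 of 13981 (3.76%). The patterns were defined on the members, so a higher share inside the gene than outside follows in part from that definition. Sites in the patterns did not end at the gene's borders.

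**Figure D5:**
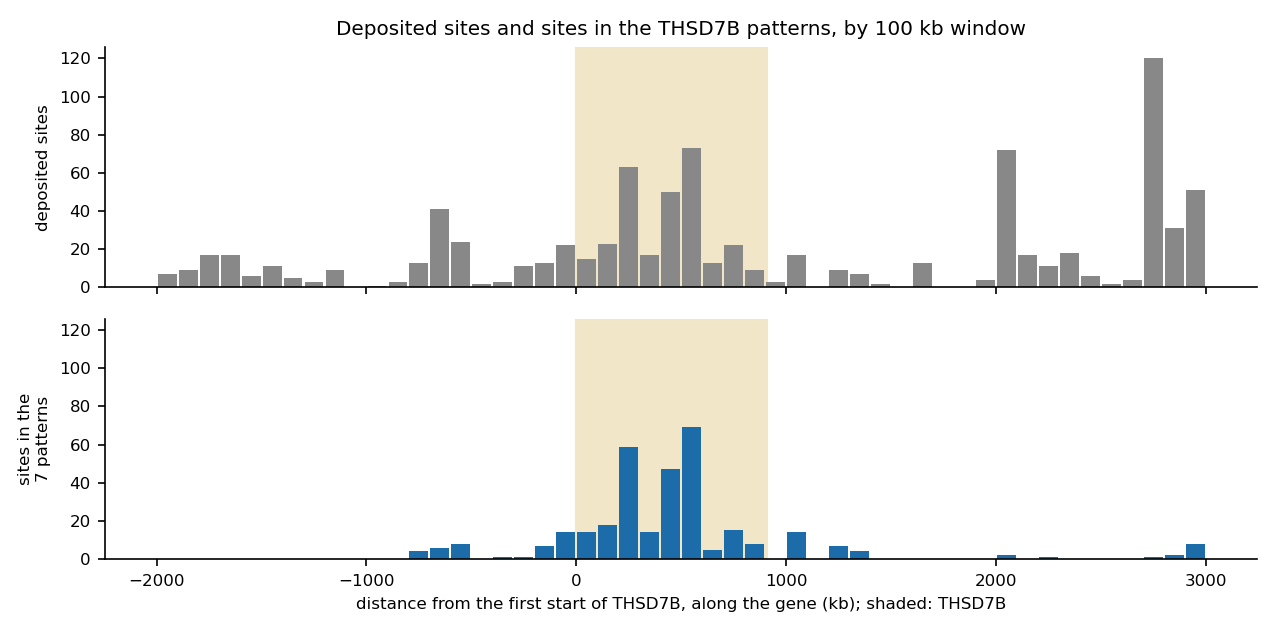
Number of deposited sites (upper) and of those in the 7 THSD7B patterns (lower) in windows of 100 kb, against the distance from the first start along the gene (horizontal axis, kb). The gene is shaded. Sites in the patterns fill most of the gene's windows and are found up to 800 kb upstream and 1400 kb along the gene's direction, with few beyond.

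The neighbouring genes were read in the same way. HNMT, which encodes the histamine-degrading enzyme histamine N-methyltransferase, lies 331 kb downstream and had 3 sites of its own, all lower in subfertile cows (49.1% ± 27.6 against 79.9% ± 16.6, SD, n = 6 each), of which 2 were in the patterns. CXCR4, the receptor that holds blood cells in the bone marrow through the chemokine CXCL12, lies 828 kb upstream and had no site of its own. Of the 83 intergenic sites nearest to it, 18 were in the THSD7B patterns.

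Among 66 genes listed for thrombospondin type 1 repeats, or for enzymes that attach sugars to the repeat, 41 of the 65 besides THSD7B had at least 1 deposited site, 792 sites in all. Of these 51.3% were higher in subfertile cows and 3.79% separated the groups, against 52.1% and 3.1% of the whole table. Of the 792 sites, 18 (2.27%, against 3.31% of the whole table) fell into a THSD7B pattern, and 15 of those are sites of DPY19L1, a mannosyltransferase that modifies the repeats. All 15 matched the mirror of C, the pattern of a single low cow.

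The listed genes with the most sites after THSD7B were ADAMTSL1, ADGRB3, SEMA5A, UNC5B and DPY19L1. ADAMTSL1, a matrix protein, had 126 sites, 84 of them higher. ADGRB3, an adhesion receptor of neurons, had 95, of which 87 were lower, with levels of 25.3% ± 16.3 against 54.6% ± 20.7 (SD, n = 6 each). The axon guidance proteins SEMA5A and UNC5B had 91 and 71 sites, with 47 and 68 higher. DPY19L1 had 52, with 31 higher. THSD7A, the closest relative, had 21 sites, of which 18 were higher in subfertile cows (72.1% ± 14.1 against 47.8% ± 29.8, SD, n = 6 each) and none was in a THSD7B pattern.

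The average level of a cow over all members was also set against that of the 1030 genes with at least 20 sites, as deviations from the group mean over the 12 cows. In this average the sites of a pattern and of its mirror offset each other in part, and the cow means ran only from 32.6% to 59.0%. Likeness here is to that average and not to the patterns, and the first value below is the highest of the 1030. NPLOC4, a cofactor of the protein-unfolding ATPase VCP, was most like THSD7B with a Pearson r of 0.88. RAB2A, a small GTPase of membrane traffic, followed with 0.74, and KIF13A, a kinesin motor, with 0.72. The least alike were CCDC146 at -0.69, SYT1, a calcium sensor of vesicle release, at -0.70 and CACNG2, an AMPA receptor auxiliary subunit, at -0.79. The median over the genes was 0.02. The gene most like THSD7B was another one under each of the 3 alternatives tried. Among the 324 genes with at least 50 sites, DOK5 was most alike (0.69). NPLOC4, RAB2A and KIF13A have 25, 27 and 23 sites, so that limit left them out whatever their values. By Spearman's rank correlation KIRREL3 was most alike (0.82). With each CpG counted once RAB2A was (0.78), among 768 genes, and whether NPLOC4 was still compared was not checked. The order among genes therefore depends on these choices, in part through which genes are compared, and the values describe 12 cows.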

How the data were processed

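Methylation was measured by enzymatic conversion sequencing of blood DNA from 12 cows. Per the submitters' processing notes, the tools included ChIPseeker 1.32.1, fastp 0.23.1, DRAGEN and Bismark, and the assembly was ARS-UCD1.2. Their roles and order, the test behind the q-values and any read minimum are not given here by any source used. The authors deposited one table, already limited to differing sites, with the percent methylated per cow, the difference in percentage points (another unit), and p-values and q-values per site. All values were used as deposited. The deposited difference had the same sign as the difference of plain group means at every member.

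Each cow's values were averaged over sites and then over the 6 cows of a group. No p-value was computed for the group contrast, because it selected the sites. A cow under 10% counted as low and one over 80% as high. Patterns used only sites with values in all cows, and members with a missing value joined a pattern only where exactly one matched. Correlations used deviations from group means over at least 10 cows. The functions were tested on simulated data. Python 3.11.15, pandas 2.3.3, numpy 2.4.6, scipy 1.17.1 and matplotlib 3.10.9 were used.

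Sites named are the 5 most positive and 5 most negative, those with separate groups, up to 20 promoter and exon sites by size of difference, and the longest 8 runs. The promoter site 60422017 was added because it lies nearest to the first start. Genes named are the 3 most and 3 least alike, the neighbours, and the 5 thrombospondin repeat genes with the most sites, with THSD7A. The members, lists and patterns were chosen with earlier results of these data known. Alternatives were other site sets, limits and leaving out each cow.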

Additional observations from a re-analysis of the deposited data

Results flagged for a closer look

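In the sets of THSD7B sites averaged per cow, a cow stood apart from the other 5 of its group, by Dixon's criterion for the gap to the nearest cow over the group's range, in these cases. Chance alone would give this in about 1 of 20 groups if the cows' values were normally spread. In the patterns the cows sat at separate levels instead, so that rate may not hold here. The sets also share sites, and no cause was tested. The number of groups looked at is not given here, so the cases listed cannot be set against that rate. Subfertile cow 2 was low at the sites higher in subfertile cows (20.5%), in intron 13 (52.5%) and in the mirror of pattern C (46.1%). It was high in pattern C (39.8%) and in the run of pattern C sites in intron 11 (50.4%), but the definition of that pattern, in which the other 5 subfertile cows are under 10%, fixes this. Subfertile cow 6 was low at the 3 exon sites (0%). It was high at the promoter sites of the inner starts (71.7%) and in the run of 7 sites there (86.2%). Its mean in that run leaves out 60228802, where it had no value and the other subfertile cows read 0% or 30%. Fertile cow 3 was high in that same run (74.8%).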

How the results depend on the processing

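The mean difference between groups over the members, -8.85 points, turned to 4.71 points without the sites that have a cow under 10% and a cow over 80%. It was -1.48 points with sites taken by nearest gene, -23.1 points by the median over sites, and -11.0 to -6.87 points without each cow in turn. The share of sites higher in subfertile cows, 37.1%, became 57.5% without the low-and-high sites, 46.2% by nearest gene and 31.1% within the patterns, and stayed at 37.1% without each cow, since direction is the deposited one. The share with separate groups, 0.735%, was 0% with each cluster of 1 kb counted once, with values in all cows required, and within the patterns. The table's shares under those settings were not computed. Leaving out each cow in turn, the members' share ran from 0.735% to 10.7% and the table's from 4.59% to 5.22%. The members' share was above the table's only without subfertile cow 2 or without fertile cow 2. The share with a low and a high cow, 85.3%, was 71.9% by cluster, 98.9% for differences of at least 40 points, 93.1% for q of at most 0.001, 92.3% within the patterns and 66.9% with limits of 10% and 90%. For this share too, the table's values under those settings were not computed. The share in patterns, 86.4%, was 72.4% with a low limit of 20%. The median correlation within 1 kb, 0.89, was 0.87 with each CpG counted once and 0.79 by Spearman's rank correlation. For pairs 1 to 10 kb apart the median was 0.67. The alternatives on patterns and on all sites between the gene's ends were chosen after seeing the data. No paired analysis was possible because the numbers 1 to 6 only name the cows of a group and the labels tie no subfertile cow to a fertile one. Read numbers are unknown, so the effect of depth was not assessed.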
